A study of Homo sapiens with 6 samples.

Results

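MYC binding at 10 genes of the G1/S transition of the cell cycle was read from ChIP-seq of ONS76 medulloblastoma cells, which sequences the DNA fragments that an antibody to MYC pulls down. The genes were CDK4, the cyclin genes CCND1, CCND2 and CCNE1, the transcription factor genes E2F1 and E2F2, the phosphatase gene CDC25A, and the inhibitor genes CDKN1A, CDKN2A and CDKN2B. The rule that chose them used names and positions and no signal, but it was set with earlier results of these data known. A MYC summit, the base of a peak with the highest enrichment, was counted for a gene when it lay within 5 kb of a transcription start fixed in hg19. CDKN2A has 2 such starts, so the 10 genes have 11 starts. Of 24899, 16809 and 17298 MYC peaks in replicates 1, 2 and 3, 17, 17 and 15 had their summit within this distance.

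ONS76 is an established human medulloblastoma line. The genotype label of every library gives inducible SOX2, while the titles and the ChIP methods name ONS76 alone, and the study states that SOX2 was not raised for ChIP-seq. The labels give 3 libraries made with the MYC antibody Y69 and 3 made with normal IgG, a non-specific antibody, all from cells of the same line and genotype. Per the methods, separate immunoprecipitations from 1 batch of chromatin were combined, and nothing in the sources used here says that the replicates came from separate cultures, so the SD over replicates measures the spread between libraries. No values of the IgG libraries were analysed here. Fold enrichment is the number of fragments at a summit, plus 1, over the number expected there, called the local background, plus 1. The sources used here do not say whether the expected number came from an IgG library or from the MYC library itself. The smallest expected number in a list, called its genome-wide level, served as the measure of depth, and was 7.79, 5.84 and 4.76 fragments in replicates 1, 2 and 3.

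MYC is a transcription factor that binds DNA as a dimer with MAX, most firmly at E-boxes, and it drives growth and entry into the cell cycle. In G1, D-type cyclins with CDK4 and then cyclin E with CDK2 phosphorylate the retinoblastoma protein, which releases E2F factors to transcribe the genes of S phase. CDC25A removes inhibitory phosphates from the kinases. The products of CDKN1A, CDKN2A and CDKN2B restrain them, and the other CDKN2A product, p14ARF, stabilises p53.

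MYC summits were found near 8 of the 10 genes, and at 8 of the 11 starts, in each of the 3 replicates. No start had a summit in some replicates and lacked one in others. The starts with a summit were those of CDK4, CCND1, CCNE1, E2F1, E2F2, CDC25A, CDKN1A and the upstream CDKN2A start. CCND2, the downstream CDKN2A start and CDKN2B had none in any list. For comparison, 3.78% of the 10 kb pieces of chromosomes 1 to 22 and X held a summit in all 3 replicates. These pieces cover genes and gene-poor sequence alike, and the share over all gene starts was not computed because the annotation used here is of hg38. Merging overlapping peaks of the 3 lists gave 17 bound places near the 8 starts. All 3 replicates had a peak at 13 of them (76.5%), against 45.0% of the 27801 places of the whole series. The places of the whole series are not limited to those near gene starts, and the share over places near any start was not computed. At 2 of the 17 places 2 replicates had a peak, and at the remaining 2 places 1 replicate did.

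**Figure D1:**
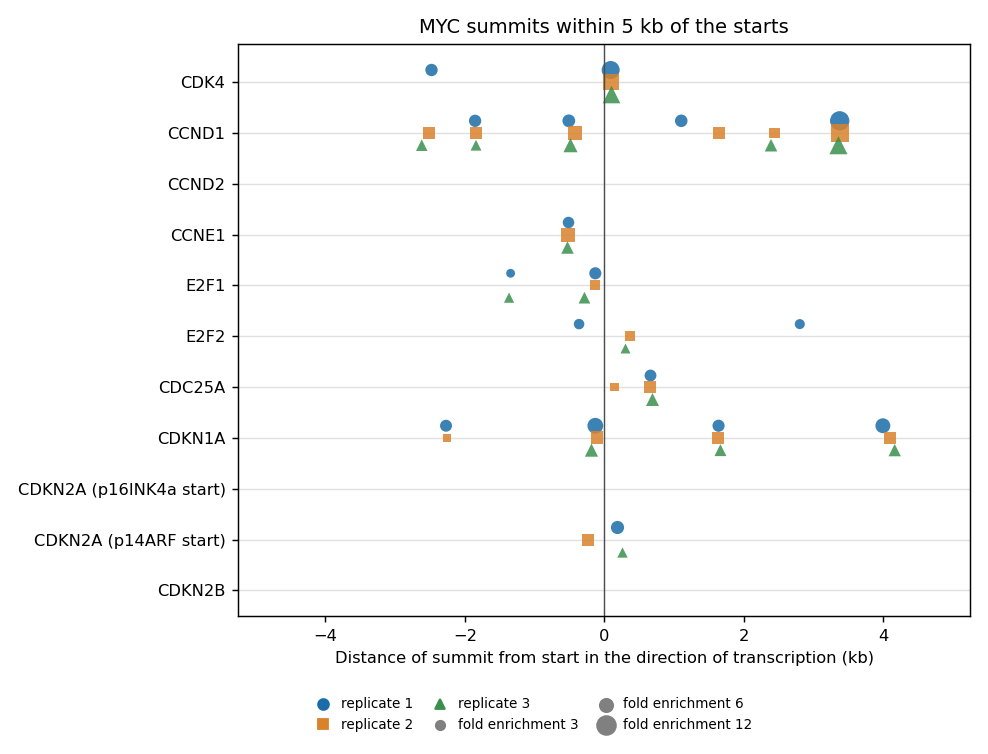
Position of each MYC summit within 5 kb of the 11 starts, as the distance from the start in the direction of transcription in kb, with 1 row for each start, a colour and shape for each replicate, and a symbol area that follows fold enrichment. Summits gather within 1 kb of 8 starts, CCND1 and CDKN1A have further groups on both sides, and CCND2, the p16INK4a start of CDKN2A and CDKN2B have none.

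The start of CDK4, the kinase partner of the D-type cyclins, lay on the minus strand of chromosome 12 at 58146230. It was covered by a strong MYC peak in each replicate, and the merged place ran from 58145531 to 58146517 (hg19). Fold enrichment over the local background was 11.1, 9.79 and 10.6 in replicates 1 to 3, with a mean of 10.5 ± 0.653 (SD, n = 3). These values rested on 117, 66 and 60 fragments at the summit. Summits lay 91, 93 and 90 bp downstream of the start, so the 3 replicates placed them within 3 bp of each other. Of all peaks in the same list, 94.3%, 92.3% and 92.3% had a lower fold enrichment than the CDK4 peak.

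A further summit near CDK4 was in replicate 1 alone, 2478 bp upstream of the start. It held 46 fragments at a fold enrichment of 5.22 (q = 5.06e-18). In the hg38 annotation the start of MARCHF9, a gene transcribed away from CDK4, lies 2793 bp upstream of the CDK4 start. If the spacing is the same in hg19, this summit is nearer to the start of MARCHF9 than to that of CDK4. It was counted for CDK4 by distance alone.

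The CDK4 promoter is shown because it held 3 copies of the E-box CACGTG, the letters that the MYC and MAX dimer binds most firmly. The 250 bases before the RefSeq start (GRCh38.p14, chr12:57752311-57752560, minus strand) are printed 5′ to 3′ with the E-boxes in capitals.
CDK4: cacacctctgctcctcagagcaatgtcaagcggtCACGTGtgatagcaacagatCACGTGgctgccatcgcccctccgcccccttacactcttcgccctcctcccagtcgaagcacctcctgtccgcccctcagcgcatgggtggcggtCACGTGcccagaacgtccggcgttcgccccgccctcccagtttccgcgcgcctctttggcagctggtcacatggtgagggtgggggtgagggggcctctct
The E-boxes begin 216, 196 and 101 bases before the RefSeq start. Among all 35116 promoter windows of this length, from 250 bases before to 50 after the start, 7.26% held at least 1 CACGTG and 33 (0.0940%) held at least 3. The RefSeq start is not necessarily the base from which the summit distances were measured, and no position was carried between the builds.

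CCND1 encodes cyclin D1, an activating partner of CDK4, and had the highest fold enrichment among the members. Its start is on the plus strand of chromosome 11 at 69455873. The 5 kb on either side held 4, 6 and 5 summits in replicates 1, 2 and 3, which fell into 4 places. Each of the 4 places had a peak in all 3 replicates. Among the 10 kb pieces of the genome that held any summit in the same list, 0.521%, 0.0277% and 0.0952% held at least as many as this window. In replicates 2 and 3 some of these places were called as more than 1 peak, which adds to the count. For the CDKN1A window, with 4, 4 and 3 summits, the same shares were 0.521%, 0.444% and 2.47%.

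The strongest CCND1 place was not at the start. It ran from 69458825 to 69459540, and its summits were 3375, 3373 and 3357 bp downstream of the start, inside a gene whose annotated length is 13319 bp in hg38. Fold enrichment there was 12.7, 11.1 and 11.2 on 128, 84 and 66 fragments, a mean of 11.7 ± 0.892 (SD, n = 3). The place that covered the start, from 69455085 to 69456387, had a fold enrichment of 5.57, 6.68 and 6.77 (mean 6.34 ± 0.668, SD, n = 3), with summits 509, 421 and 485 bp upstream. Enrichment at the start was 0.438 to 0.603 times that at the downstream place, and it was lower in 3 of 3 replicates. With 3 replicates the two-sided exact sign test has a smallest possible p of 0.25. With a distance limit of 1 kb or 2 kb, the value for CCND1 was therefore 6.34.

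Between and upstream of these, the other CCND1 places were weaker. From 69456755 to 69458617 the strongest summits had a fold enrichment of 5.37, 5.56 and 5.38 and lay 1103, 1643 and 2390 bp downstream of the start. Replicate 2 had a further, weaker summit there, 2437 bp downstream. From 69453105 to 69454233 the values were 5.16, 4.53 and 4.52, at 1853, 1843 and 2618 bp upstream. Weaker summits in this place lay 2515 bp upstream in replicate 2 and 1840 bp upstream in replicate 3. Each replicate thus had a summit between 1840 and 1853 bp upstream. In both places the position of the strongest summit differed between replicates by more than at the start. In the upstream place this came from replicate 3 alone, where the summits at 2618 and 1840 bp held 25 and 22 fragments. The fold enrichment of each strongest summit lay within the 95% counting intervals of the others in its place.

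CCNE1 encodes cyclin E1, the partner of CDK2. Its start is on the plus strand of chromosome 19 at 30302901. A single summit was called in each replicate, 519, 521 and 533 bp upstream. The peaks ended before the start in all 3 lists, and the merged place ran from 30302087 to 30302880. Fold enrichment was 4.52, 6.06 and 5.34 on 50, 51 and 36 fragments (mean 5.31 ± 0.769, SD, n = 3). Here replicate 1, the deepest library, had the lowest value.

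CCND2, which encodes cyclin D2, stood apart from the other cyclin genes. Its start is on the plus strand of chromosome 12 at 4382902, and no list had a summit within 5 kb of it. The nearest summits were 47385, 47417 and 47269 bp downstream, which is farther than the annotated gene length of 35583 bp (hg38), with a fold enrichment of 5.58, 3.65 and 4.69. On the upstream side the nearest summit was 815692, 815646 and 815654 bp away. Absence of a peak has a limit set by depth. Among peaks anywhere in the genome with a background at the genome-wide level, the weakest held 19, 16 and 14 fragments in the 3 lists, or 2.44, 2.74 and 2.94 times that level. A weaker signal at CCND2 was not detectable at this depth, and the limit is higher if the background at its start, which the lists do not give, is above the genome-wide level.

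E2F1 encodes an activating E2F factor. Its start is on the minus strand of chromosome 20 at 32274210, and in all 3 lists a peak covered it, within a merged place from 32274144 to 32274632. Fold enrichment was 5.0, 3.20 and 4.70 on 87, 40 and 46 fragments (mean 4.30 ± 0.962, SD, n = 3). The summits were 129, 130 and 285 bp upstream of the start. A weaker place from 32275380 to 32275738 was called in replicates 1 and 3 but not in replicate 2, with summits 1344 and 1366 bp upstream and a fold enrichment of 2.65 and 3.57. Replicate 2 was thus the lowest at the start and had no call at the upstream place.

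E2F2, which encodes a related activating factor, had the weakest bound start. It lies on the minus strand of chromosome 1 at 23857712. Fold enrichment was 3.75, 3.59 and 3.37 (mean 3.57 ± 0.192, SD, n = 3) on 37, 26 and 21 fragments, below the median of the whole list in each replicate. The SD was small, but the summits moved. They lay 362 bp upstream of the start in replicate 1 and 369 and 300 bp downstream in replicates 2 and 3, and the peak covered the start in replicate 1 but not in the others. A separate summit 2803 bp downstream was in replicate 1 alone, with 38 fragments at a fold enrichment of 3.44.

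CDC25A lies on the minus strand of chromosome 3 with its start at 48229801, and a broad place from 48228347 to 48230422 covered it. The strongest summits were 657, 652 and 689 bp downstream of the start. Their fold enrichment was 4.77, 4.82 and 5.73 on 42, 32 and 32 fragments (mean 5.11 ± 0.540, SD, n = 3). Replicate 1 called the region as 1 peak of 2076 bp. Replicate 2 divided it in 2, and its summit near the start, 143 bp downstream, was the weakest of all member summits, with 18 fragments, a fold enrichment of 2.49 and a q-value of 0.0217. In replicate 3 the peak was 1182 bp wide.

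The promoters of E2F1, E2F2 and CDC25A are shown because each held the letters TTTGGCGC, a well known form of the site that E2F factors bind. The last 60 bases before the RefSeq starts (GRCh38.p14, minus strand in each case) are at chr20:33686386-33686445, chr1:23531234-23531293 and chr3:48188418-48188477, with the E2F letters in capitals.
E2F1: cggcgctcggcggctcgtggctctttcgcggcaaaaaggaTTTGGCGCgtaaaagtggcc
E2F2: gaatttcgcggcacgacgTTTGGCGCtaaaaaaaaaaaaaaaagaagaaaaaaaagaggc
CDC25A: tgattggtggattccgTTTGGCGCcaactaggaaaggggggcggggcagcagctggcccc
The match began 20, 42 and 44 bases before the start. On both strands, TTTGGCGC or TTTCGCGC was in 3 of the 9 promoter windows of the members and in 1.15% of all windows. None of the 3 promoters held CACGTG.

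CDKN1A, which encodes the kinase inhibitor p21, had as many bound places as CCND1. Its start is on the plus strand of chromosome 6 at 36646459. The place from 36646001 to 36647374 covered the start, with summits 129, 105 and 184 bp upstream. Fold enrichment there was 8.48, 5.70 and 5.91 on 80, 38 and 33 fragments (mean 6.70 ± 1.55, SD, n = 3). Replicate 1 was above the others by more than they differed from each other.

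The other CDKN1A places lay on both sides of the start. From 36650171 to 36650799, inside the gene, summits 3994, 4098 and 4164 bp downstream had a fold enrichment of 7.58, 5.38 and 5.20 (mean 6.05 ± 1.33, SD, n = 3). Replicate 1 was again the highest there. The place at the start exceeded it by 1.06 to 1.14 times in 3 of 3 replicates, but their 95% counting intervals overlapped in each one. From 36647795 to 36648507 the values were 5.03, 4.68 and 4.86 at 1638, 1632 and 1665 bp downstream. Upstream, from 36644015 to 36644381, replicates 1 and 2 had a summit 2270 and 2256 bp from the start with a fold enrichment of 4.89 and 2.55, and replicate 3 had none. In the hg38 annotation the noncoding gene PANDAR starts 3588 bp upstream of CDKN1A and DINOL 155 bp upstream, both on the other strand, so peaks there cannot be given to 1 gene.

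CDKN2A and CDKN2B lie together on chromosome 9, all on the minus strand. CDKN2B encodes p15INK4b, the downstream CDKN2A start at 21974826 gives p16INK4a, and the upstream start at 21994490 gives p14ARF. The p14ARF start was the bound one. Fold enrichment was 5.92, 4.53 and 3.65 on 51, 30 and 20 fragments (mean 4.70 ± 1.14, SD, n = 3). The highest value was 1.62 times the lowest, the widest such ratio among the 8 bound starts. Summits were 179 and 255 bp downstream of the start in replicates 1 and 3 and 232 bp upstream in replicate 2. The peak was 1883 bp wide in replicate 1, 661 bp in replicate 2 and 263 bp in replicate 3, where it ended short of the start. In hg38, the noncoding gene CDKN2B-AS1 starts 191 bp downstream of the upstream RefSeq start of CDKN2A. Another noncoding gene, ENSG00000266446, starts 158 bp upstream of that RefSeq start, and both are on the opposite strand. The RefSeq start is not the bound start, so the distances of these genes from the summits are not given. The peaks here cannot be given to 1 gene.

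Neither start that gives an INK4 protein had a MYC summit within 5 kb. For p16INK4a the nearest summits were those of the p14ARF start, 19485, 19896 and 19409 bp upstream. In the other direction the nearest was 286435, 286435 and 286419 bp downstream. For CDKN2B the nearest were again those of the p14ARF start, 15001, 14590 and 15077 bp downstream, since both starts are 14822 bp apart. Upstream of CDKN2B the nearest summits were 43261, 43257 and 20858 bp away. The local background was at the genome-wide level at the p14ARF summits in each replicate but 1.16, 1.00 and 1.74 times that level at these upstream summits. The background at the starts themselves is not in the lists, so the limit of detection there may be higher than the one given for CCND2.

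Between 5 kb and 10 kb from the 11 starts, a single summit was called in the 3 lists together. It was 8999 bp upstream of E2F2 in replicate 3, with 19 fragments and a fold enrichment of 3.03. The outermost summits inside 5 kb were those of CDKN1A about 4 kb downstream.

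The strongest summits were then put in order by mean fold enrichment over the 3 replicates. CCND1 was highest, followed by CDK4, CDKN1A, CCNE1, CDC25A, the p14ARF start of CDKN2A, E2F1 and E2F2. The rank of CCND1 rested on its summit inside the gene. With a distance limit of 1 kb or 2 kb its mean was 6.34, below those of CDK4 (10.5) and CDKN1A (6.70). Within 5 kb, CCND1 was above CDK4 in 3 of 3 replicates, but their 95% Poisson counting intervals overlapped in each one. CCND1 was above CDKN1A in 3 of 3 replicates, with the intervals apart in all of them. CDK4 was also above CDKN1A in 3 of 3, with overlapping intervals in each. Below these, no pair of neighbours kept its order in all replicates. CDKN1A was above CCNE1 in 2 of 3, CCNE1 above CDC25A in 1 of 3, CDC25A above CDKN2A in 2 of 3, CDKN2A above E2F1 in 2 of 3, and E2F1 above E2F2 in 2 of 3. Of all 28 pairs, 20 had the same order in the 3 replicates. The orders are given as counts of replicates, since 0.25 is the smallest p of an exact sign test on 3 replicates for any pair, however large the difference.

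**Figure D2:**
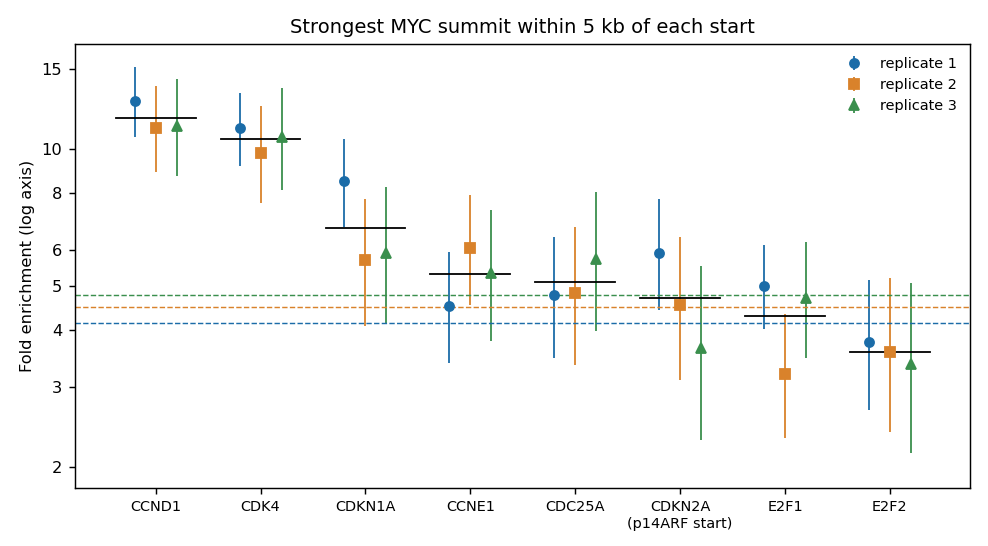
Fold enrichment of the strongest MYC summit within 5 kb of each bound start, on a log axis, with 1 symbol for each replicate, 95% Poisson intervals of the fragment number as vertical lines (counting error only), the mean as a black bar and the median of each whole list as a dashed line in the colour of the replicate. CCND1 and CDK4 sit between 9.79 and 12.7, above the other starts, and E2F2 lies below the medians of the lists.

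Set against the whole lists, the members were spread over the range of MYC peaks. The median fold enrichment of all peaks was 4.15, 4.49 and 4.78 in replicates 1, 2 and 3. The median of the 8 strongest member summits was 5.46, 5.26 and 5.54 (mean 5.42 ± 0.141, SD, n = 3). Of the 8, 7, 6 and 5 were above the median of their list. The same 2 starts, CCND1 and CDK4, were above the 90th percentile in each replicate. For CCND1 this held at its summit inside the gene. The place that covered its start, at 5.57, 6.68 and 6.77, was below the 90th percentiles of 8.99, 8.86 and 9.55. Only positions within 5 kb of a start enter the member values and the highest of several summits was taken, so this is a description without a test.

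The local background, the denominator of fold enrichment, separated E2F1 from the other members. Relative to the genome-wide level, the background at its strongest summit was 2.13, 2.02 and 1.89 (mean 2.01 ± 0.119, SD, n = 3). The 7 other strongest summits had means between 1.00 and 1.29, the highest at CCNE1. Over all peaks of chromosome 20, where E2F1 lies, the median of this ratio was 2.07, 1.90 and 1.89, close to the E2F1 values. Over the chromosomes of the other members it was 1.00 to 1.34.

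**Figure D3:**
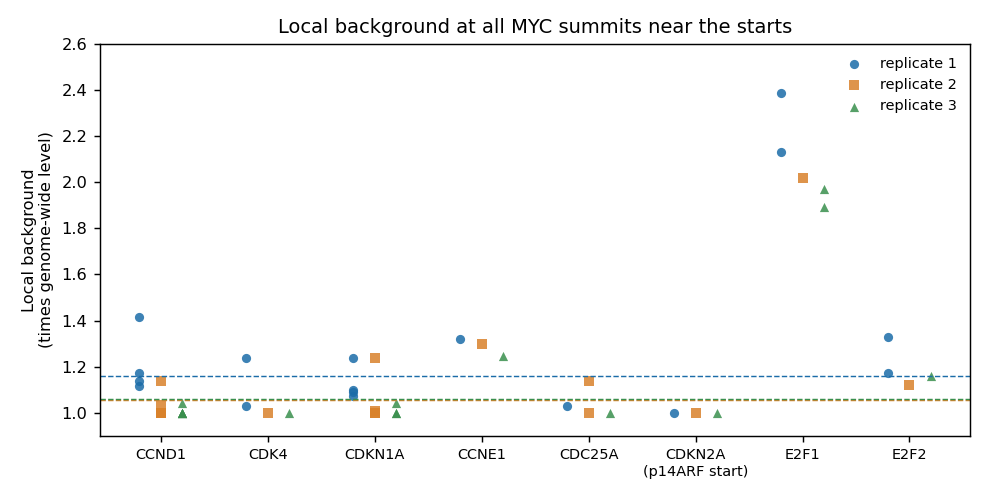
Local background at every MYC summit within 5 kb of the 8 bound starts, in multiples of the genome-wide level of the same list, with a colour and shape for each replicate and dashed lines at the medians of the whole lists. The E2F1 summits lie between 1.89 and 2.39, and all other summits lie at or below 1.42.

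The place of E2F1 in the order depended on this denominator. Divided by the genome-wide level in place of the local background, its strongest summit held 11.2, 6.85 and 9.67 times that level (mean 9.23 ± 2.20, SD, n = 3), and E2F1 moved from rank 7 to rank 3 of the 8 starts. It was then above CDKN1A in 3 of 3 replicates and below CDK4 in 3 of 3, but above CCNE1 in 2 of 3 (difference 1.66 ± 3.34, SD, n = 3). This comparison was added after the values were seen. Over all peaks of chromosome 20, the median on this scale was 7.83, 8.13 and 9.04 in replicates 1, 2 and 3. Over the chromosomes of the other members it was 5.01 to 6.73. E2F1 was above the median of its own chromosome in replicates 1 and 3 and below it in replicate 2. CCND1, at its summit inside the gene, and CDK4 stayed first and second on both scales, at 14.9 ± 1.36 and 13.0 ± 1.89 times the genome-wide level (SD, n = 3). At the place that covered the CCND1 start the mean was 8.11 ± 0.319 times that level (SD, n = 3), below that of E2F1. E2F2 stayed last at 4.54 ± 0.185. What raises the background at E2F1 was not tested.

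**Figure D4:**
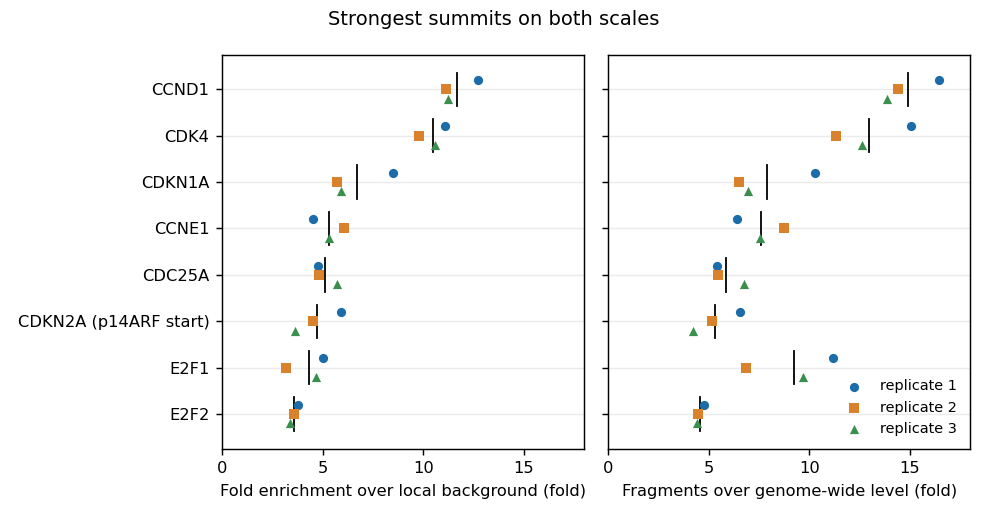
Strongest MYC summit of each bound start as fold enrichment over the local background (left) and as fragments over the genome-wide level of the list (right), both linear, with 1 symbol for each replicate and the mean as a black line. E2F1 moves from a mean of 4.30 on the left to 9.23 on the right, while the order of CCND1, CDK4 and E2F2 is the same in both.

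The letters of the promoters were compared with the binding where the RefSeq table holds the gene, which was so for 8 members with 9 windows. CDK4 was the single member with CACGTG. The E-box variant CACGCG was in the windows of CDKN1A, 195 bases before the start, and of the downstream CDKN2A start, 29 bases before it, against 11.4% of all windows. The variant CATGTG was in CDK4, 34 bases before the start, against 11.1% of all windows. All motifs were read on both strands. The windows of CCNE1, of CDKN2B and of the upstream CDKN2A start of RefSeq held none of the motifs searched. The last of these is not at the bound start. Its RefSeq start is 13981 bp from that of CDKN2B, against 14822 bp between the hg19 starts, so its letters are not set beside the binding there. Measured from the hg19 starts, the strongest summits of CDK4, CCND1, CCNE1, E2F2 and CDC25A lay outside a span of 250 bases before to 50 after the start in each replicate. The RefSeq windows are counted from RefSeq starts, which can be other bases. These distances therefore do not show whether a summit, such as that of CDK4, lay inside or outside its RefSeq window.

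**Figure D5:**
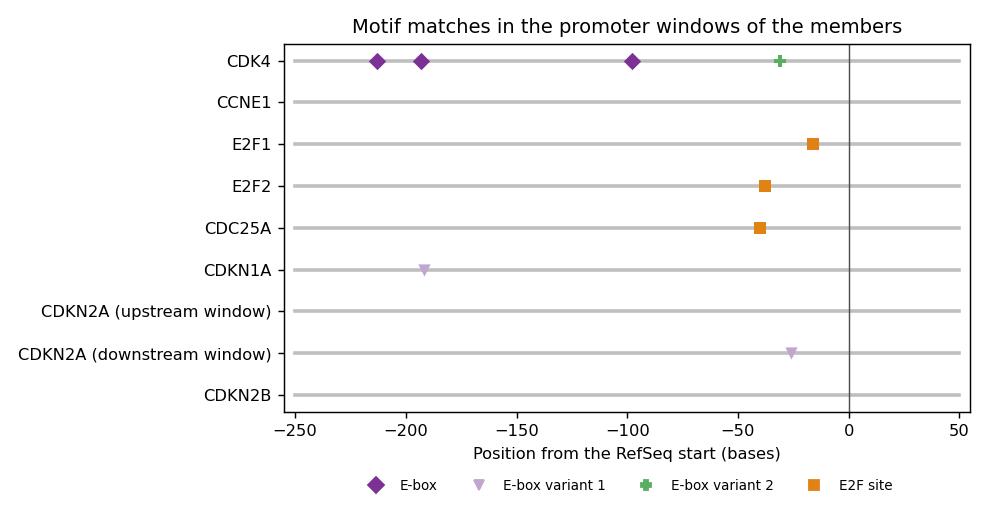
Position of motif matches in the 9 RefSeq promoter windows of the members, in bases from the RefSeq start, as symbols on a grey line for each window. E-box variant 1 is CACGCG and variant 2 is CATGTG, and the E-boxes of CDK4 and the E2F sites of E2F1, E2F2 and CDC25A share no window with each other.

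Other genes of the same pathway could not be placed in hg19 and were compared by their promoter letters alone. Of the 15 (CDK2, CDK6, CCND3, CCNE2, CCNA2, RB1, RBL1, E2F3, TFDP1, CDC25B, CDKN1B, CDKN1C, CDKN2C, CDKN2D and SKP2), 12 were in the table, with 21 windows, so a gene can have several chances of a match. CACGTG was in 4 of the 21 windows (19.0%), against 7.26% of all windows, and these belonged to 3 genes: CDK6, another kinase partner of D-type cyclins, E2F3, a further activating E2F factor, and CDKN2C, an inhibitor of the INK4 family. The E2F letters were in 2 of the 21 windows (9.52%), against 1.15% of all windows, namely in RBL1, a relative of the retinoblastoma gene, and in TFDP1, which encodes the dimer partner of E2F factors. CACGCG was in 3 of the 21 windows (14.3%), those of CCND3, CDKN1B and TFDP1, against 11.4% of all windows, and CATGTG was in none. Whether MYC bound at these promoters was not analysed here.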

How the data were processed

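Peak lists of 3 MYC ChIP-seq libraries of ONS76 cells were used. According to the study's methods and the labels, the authors aligned reads to hg19 with Bowtie2, and MACS2 called the peaks of every library separately (q-value 0.05). Program versions and the control input were not stated in those sources. The deposited values are a fold enrichment at the summit (a ratio over local background, with 1 added above and below), its −log10 p-value, its −log10 q-value, and a score that the authors' caller derived from the latter. Deposited positions and summit offsets are in bp. They were not scaled between libraries.

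Starts were those of the rule, in hg19, and strands, gene lengths and neighbours came from GENCODE release 44 (hg38). Fragments and local background were recovered from fold enrichment and p-value as the whole number whose Poisson tail matched within 0.001, which succeeded for 100% of peaks. The lowest background of a list was its genome-wide level. Intervals are exact 95% Poisson intervals and cover counting error only. Peaks sharing 1 bp or more across lists formed a place. The recovery and merging were tested on simulated data. Python 3.11.15, pandas 2.3.3 and SciPy 1.17.1 were used. All 10 members were named. The members, lists and settings were chosen with earlier results of these data known. Settings tried were other distances, q-values of 0.01 and 0.001, equal numbers of peaks, peak overlap, omission of each replicate and fold enrichment with nothing added.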

Additional observations from a re-analysis of the deposited data

How the results depend on the processing

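The number of genes (8 of 10) and of starts (8 of 11) with a summit in every replicate was the same with distances of 1, 2 and 10 kb, q-values of at most 0.01 and 0.001, equal numbers of the strongest peaks, any part of the peak within 5 kb, each replicate left out, and at least 2 replicates required. CCND2, the downstream CDKN2A start and CDKN2B lacked a summit under each. Every start had a summit in all 3 replicates or in none. Leaving out a replicate or requiring 2 could therefore not change these numbers. The mean number of summits per replicate fell from 16.3 to 8.33 with a distance of 1 kb and lay between 16 and 17 on omitting 1 replicate. The median of the strongest summits was 6.10 in place of 5.42 with nothing added to fragments and background, which raises every fold, and 5.36 to 5.50 without 1 replicate. Among the single starts, 7 of 57 alternatives moved a value by more than 1 SD or a rank, among them CCND1 at 1 kb and 2 kb and E2F1 by the genome-wide level. Leaving out 1 of the 3 replicates cannot move their mean by as much as 1 SD, so those alternatives could not count as moved. The distance of 10 kb added a single weak summit, near E2F2, and left every value as it was. No paired analysis was possible because no result compares groups. The peak lists analysed were those of MYC alone, and no values of the IgG libraries, which carry the same numbers, were analysed.

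Depth limits what a missing peak shows. The 3 libraries have no second condition, and no hg19 annotation or sequence was used here, so the exon or intron at a summit and the share of all promoters bound are not given.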
